A study of Mus musculus with 6 samples.

Results

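A set of 9 genes of growth hormone and cytokine signalling were followed in mouse skeletal muscle: the feedback inhibitors Cish, Socs1, Socs2 and Socs3, the growth hormone receptor gene Ghr, the kinase gene Jak2, and the transcription factor genes Stat3, Stat5a and Stat5b. They are 9 of the 53342 genes in the deposited expression table and were matched by gene symbol. All 9 passed the level filter that left 19235 genes for testing. By its estimated levels, Socs1 would not have passed without its LTKOFstL/L libraries. The set was selected on the high Cish values of one genotype, LTKOFstL/L, so Cish in the comparisons with that genotype is described without a test.

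The data are 6 RNA-seq libraries from skeletal muscle of male mice, with 2 libraries in each of 3 genotypes. Control libraries are named Loxp in the labels, which give neither the floxed alleles nor the Cre status of these mice. LDKO mice (Irs1L/L:Irs2L/L:CreAlb) lacked the insulin receptor substrate genes Irs1 and Irs2 in the liver, where the albumin promoter drives Cre. LTKOFstL/L mice came from a cross of LDKO mice with mice carrying loxP sites around exons 2 to 5 of Fst, the gene of the secreted activin and myostatin antagonist follistatin. The diet is uncertain, since the tag on each sample names high fat feeding and the series description names chow, from 5 to 16 weeks. No label ties a library to an animal of its own, so the spread behind each p-value is that between these libraries and may be technical.

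Growth hormone binds its receptor on the cell surface, which activates the receptor-bound kinase JAK2. JAK2 phosphorylates the transcription factors STAT5A and STAT5B, and cytokines of the interleukin-6 family act on STAT3 through related receptors. STAT5 and STAT3 then switch on CIS (the product of Cish) and SOCS proteins, which bind receptors or JAKs and damp the signal. In muscle this pathway is known for its links to local Igf1 production and fibre growth.

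The members' values are centred log2 values: the authors' log2 of library-scaled reads, with each gene's median over the 6 libraries set to 0. A difference between libraries is a log2 fold change, but values of different genes cannot be compared as levels. All 12 skeletal muscle markers were tested, and 9 of them had a median level above 256 scaled units. The depth of each library is unknown, and a single read was worth between 1.76 and 2.12 scaled units. A list of 16 exocrine pancreas genes set the Control libraries apart, with mean centred log2 values of 11.9 and 7.95 in Control, 1.11 and -1.39 in LDKO, with -2.31 and -2.34 in LTKOFstL/L. The deletions were made in liver, so muscle values do not check them. Fst read -0.003 and 0.003 in Control, -1.23 and -0.32 in LDKO, with 1.38 and 1.02 in LTKOFstL/L. In the same order, Irs2 read 0.90 and 0.81, -0.69 and 0.69, and -1.42 and -1.48. Irs1 read 0.14 and 0.23, -0.60 and 0.16, and -0.14 and -0.41. None of these genes passed the adjusted threshold of 0.05 in any comparison.

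Both Cish and Socs3 carry the STAT5 and STAT3 consensus TTCNNNGAA in the 300 bases around the RefSeq start (250 before and 50 after, GRCm38.p6), and these 2 promoters are shown for that reason, with the matches in capitals. The Cish window is chr9:107296409-107296708 on the forward strand and the Socs3 window is chr11:117969317-117969616 on the reverse strand.

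Cish: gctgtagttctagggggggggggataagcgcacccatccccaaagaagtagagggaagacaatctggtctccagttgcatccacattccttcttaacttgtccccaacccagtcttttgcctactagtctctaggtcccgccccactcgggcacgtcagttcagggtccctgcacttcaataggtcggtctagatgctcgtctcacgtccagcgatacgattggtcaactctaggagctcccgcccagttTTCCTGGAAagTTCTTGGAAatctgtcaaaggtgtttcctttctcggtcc

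Socs3: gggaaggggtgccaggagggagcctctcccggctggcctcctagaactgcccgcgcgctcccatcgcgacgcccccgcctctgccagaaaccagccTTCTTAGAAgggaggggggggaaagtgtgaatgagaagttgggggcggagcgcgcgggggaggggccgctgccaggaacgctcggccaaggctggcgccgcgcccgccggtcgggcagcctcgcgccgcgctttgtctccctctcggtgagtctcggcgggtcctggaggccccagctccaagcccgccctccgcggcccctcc

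The Cish window holds 2 matches, TTCCTGGAA and TTCTTGGAA, at bases 0 to 8 and 11 to 19 counted from the start base as 0. Socs3 holds 1, TTCTTAGAA, at bases -154 to -146. The motif reads the same on both strands. Of the 32851 RefSeq promoters of this length, 8.30% hold at least 1 match and 0.457% hold at least 2. Of the 9 members, 8 had promoters in the RefSeq table, 11 windows in all, and 2 of those windows held a match. A match is a description of letters, and no match says only that these letters are absent from the window.

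The GENCODE annotation places the start of Cish earlier, at 107296026, so the window printed lies within the first exon of that transcript. The annotated Cish gene spans chr9:107296026-107302784 on the forward strand. An antisense gene, Gm17041, lies on the reverse strand at chr9:107300380-107301838, and all 479 of its exonic bases fall inside exons of Cish. A second reverse-strand gene, the pseudogene Gm17040, shares 261 of its 1150 exonic bases with Cish exons. Whether the counting used strand is not given in the sources used here. Reads over the shared exonic bases therefore cannot be assigned to Cish or to these genes. The shared bases are all the exonic bases of Gm17041 but only part of those of Gm17040. Gm17040 read 0.37 and -3.73 in Control, -0.54 and -0.37 in LDKO, with 0.53 and 0.52 in LTKOFstL/L.

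**Figure D1:**
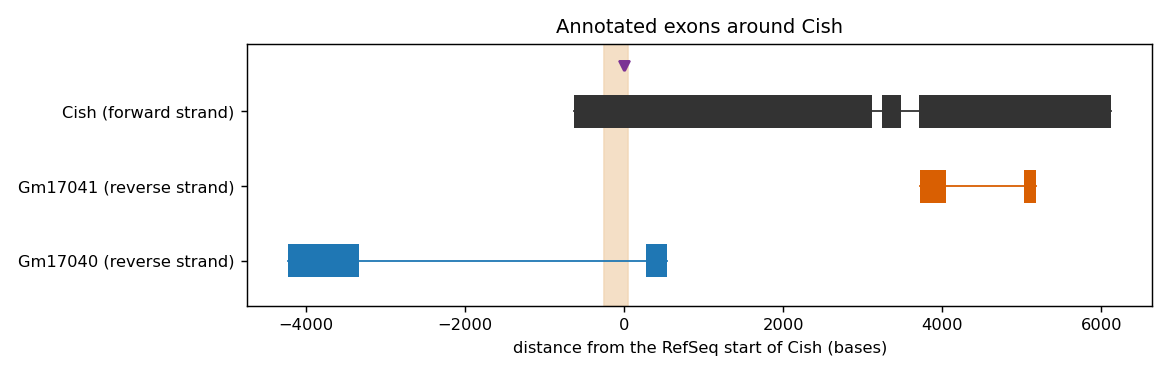
Exons annotated around Cish, merged over transcripts, against the distance in bases from the RefSeq start of Cish. Boxes are exons, the shaded band is the window of 250 bases before to 50 after the start, and the purple triangles mark the 2 TTCNNNGAA matches. Both exons of Gm17041 lie within Cish exons.

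Cish, the inhibitor that binds the growth hormone and interleukin-2 receptors, had the widest range of the 9 genes. Its centred log2 values were -0.86 and -1.59 in Control, -0.12 and 0.12 in LDKO, with 2.47 and 3.39 in LTKOFstL/L. Every LTKOFstL/L library lay above every other library, and both LDKO libraries lay above both Control libraries. The LTKOFstL/L mean exceeded the Control mean by 4.15 on the log2 scale, with an SE of 0.43, a 17.8-fold difference. Against LDKO the difference was 2.93, or 7.62-fold, with the same SE. Of the tested genes, 0.364% had a larger absolute change than Cish against Control and 0.712% against LDKO. The rounding steps of the stored values bracket the reads behind Cish at 4 to 62 in the Control libraries and 63 to 1189 in the LTKOFstL/L libraries. Leaving out each library in turn gave changes of 3.69 to 4.61 against Control and 2.47 to 3.39 against LDKO.

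**Figure D2:**
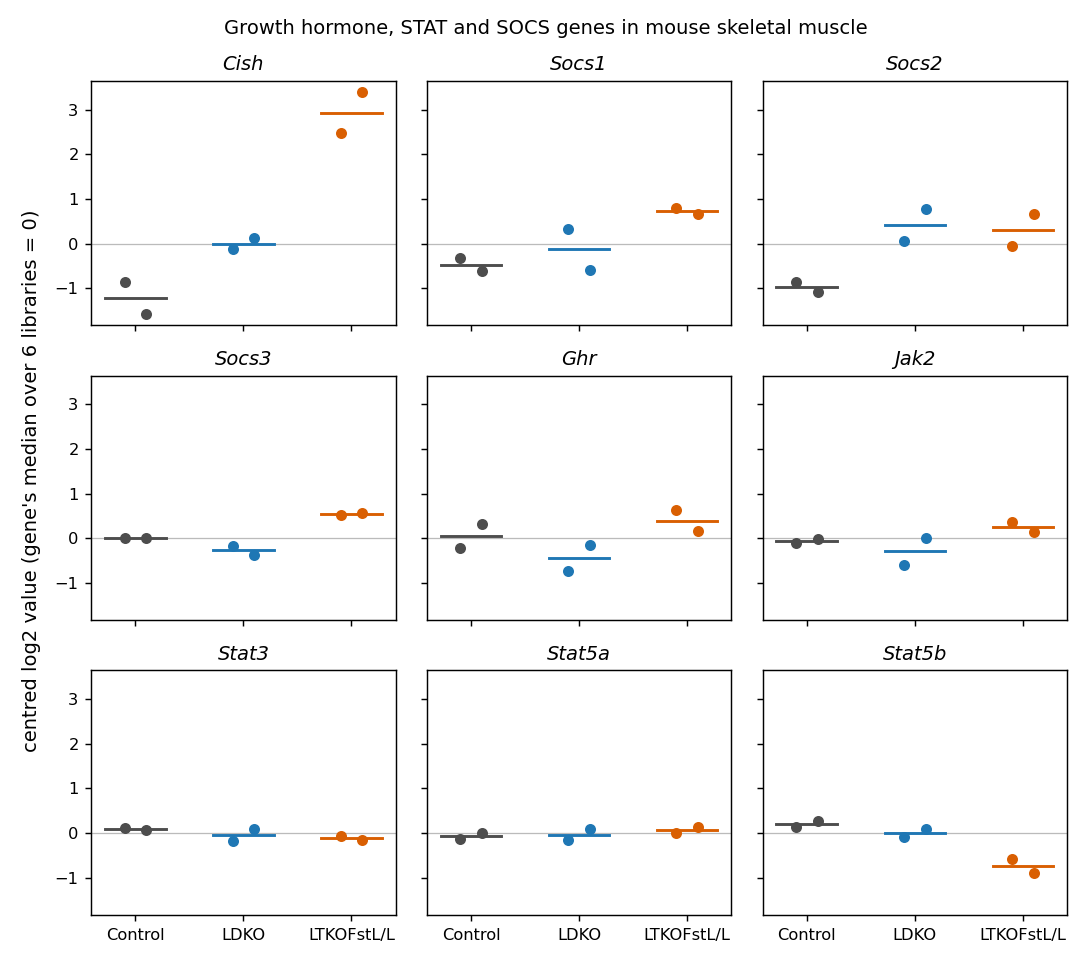
Centred log2 values of the 9 genes (vertical axis, gene median over 6 libraries at 0) in Control, LDKO and LTKOFstL/L. Each point is 1 library and each line the mean of the 2 libraries of a genotype. Cish reaches 2.47 and 3.39 in LTKOFstL/L, and Stat5b lies at -0.59 and -0.89 there.

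The step from Control to LDKO, which addresses what loss of Irs1 and Irs2 in the liver does in muscle, was tested. It uses the same Control libraries above which Cish rose in LTKOFstL/L, the rise that chose the set. The Cish test in this step is therefore not free of that choice. Cish was 1.22 higher in LDKO on the log2 scale (SE 0.43, 2.33-fold), and both LDKO libraries lay above both Control libraries. The limma test gave an unadjusted p of 0.042 and an adjusted p of 0.803, so this difference did not pass. Socs2, an inhibitor whose loss makes mice overgrow, read -0.85 and -1.09 in Control and 0.055 and 0.77 in LDKO. Both LDKO libraries of Socs2 lay above the Control libraries, by 1.38 on average (SE 0.38, 2.61-fold). Its unadjusted limma p was 0.019 and its adjusted p 0.763.

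None of the 9 genes passed the adjusted threshold of 0.05 for LDKO against Control, against 0.187% of all tested genes, 5 higher and 31 lower. At an unadjusted p under 0.05 the count was 2 of 9, Cish and Socs2, against 1135 genes in all (5.90% of tested genes). The genotypes did not overlap for 4 of the 9 genes, against 29.9% of tested genes. Cish and Socs2 were the 2 on the higher side, and Socs3 and Stat5b the 2 on the lower side. Cish enters these counts with the limit given above, that the set was chosen on its values. Of the acinar markers, 14 of 16 were among the genes that fell in this comparison. With those genes left out of the fit, the members kept their values and 0 of 9 passed. The acinar markers' part in the results was not tested.

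The authors' deposited table of differential genes for LDKO against Control holds 1378 genes, and 2 of the members are among them. Cish is listed there with a log2 difference of 1.22 and a corrected p of 2.47e-22, and Socs2 with 1.38 and a corrected p of 0. The p-values of the authors' deposited table come from what its header calls an AC test, and they are not on the same footing as the limma test above, which uses the spread between libraries.

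In LTKOFstL/L muscle Socs2 did not follow Cish. Socs2 read -0.055 and 0.67 there, which overlapped the LDKO libraries at 0.055 and 0.77, and the LTKOFstL/L minus LDKO difference was -0.11 (95% interval -1.12 to 0.91, adjusted p = 0.918 by limma). The difference turned to 0.25 without LDKO replicate 2 and to 0.26 without LTKOFstL/L replicate 1. Against Control it was 1.28 (SE 0.38), with no overlap between the libraries and an limma adjusted p of 0.294. Within each library, the centred Cish value minus the centred Socs2 value was 2.52 and 2.72 in LTKOFstL/L. It was -0.005 and -0.50 in Control and -0.17 and -0.65 in LDKO. Both genes are centred on their own medians, so only the shift of this difference between genotypes can be read, not which level is higher. The difference restates the Cish values that chose the set and is given as a description.

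Socs3, the inhibitor known for restraining interleukin-6 and leptin signalling through STAT3, was the most even of the inhibitors within genotypes. It read 0.003 and -0.003 in Control, -0.16 and -0.38 in LDKO, with 0.53 and 0.56 in LTKOFstL/L. No library of one genotype overlapped another, with LDKO lowest and LTKOFstL/L highest. LTKOFstL/L was 0.54 above Control (95% interval 0.16 to 0.93, limma adjusted p = 0.252) and 0.82 above LDKO (95% interval 0.43 to 1.20, limma adjusted p = 0.118). The change against LDKO corresponds to 1.76-fold, and it did not pass.

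Socs1, the inhibitor that blocks JAK kinases in interferon signalling, was thinly read, with a bracket of 2 to 19 reads over the 6 libraries. It read -0.33 and -0.62 in Control, 0.33 and -0.60 in LDKO, with 0.79 and 0.66 in LTKOFstL/L. Both LTKOFstL/L libraries were above the other 4, but the LDKO libraries overlapped the Control range. Its change against Control was 1.20 with a 95% interval of -0.37 to 2.77 (limma adjusted p = 0.527). By its estimated levels, Socs1 would not have met the level filter without the LTKOFstL/L libraries. Its tests with that genotype are therefore not independent of the high values there. With no level filter the limma adjusted p against Control was 0.501. The authors' deposited table for LTKOFstL/L against Control holds 2176 genes, where the expression table holds 53342. Socs1 is listed there at 1.20 with a corrected AC test p of 0.00408, and Socs2 at 1.28 with a corrected p of 0.

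The receptor gene and its kinase gene had higher means in LTKOFstL/L than in LDKO, and neither difference passed. Ghr, which encodes the growth hormone receptor, read -0.21 and 0.32 in Control, -0.73 and -0.15 in LDKO, with 0.64 and 0.15 in LTKOFstL/L. Control values lay between and overlapped both other genotypes, while LDKO and LTKOFstL/L did not overlap. Ghr was 0.84 higher in LTKOFstL/L than in LDKO (95% interval 0.11 to 1.56, 1.79-fold), with an unadjusted limma p of 0.030 and an adjusted p of 0.254. Jak2, the kinase bound to that receptor, read -0.10 and -0.012 in Control, -0.60 and 0.012 in LDKO, with 0.35 and 0.13 in LTKOFstL/L. Its LTKOFstL/L libraries lay above the other 4, and the difference from LDKO was 0.54 (95% interval -0.02 to 1.10, limma adjusted p = 0.322). Against Control, Ghr differed by 0.34 (95% interval -0.39 to 1.06) and Jak2 by 0.30 (95% interval -0.26 to 0.86), and neither passed. Leaving out 1 library moved the differences from LDKO to between 0.55 and 1.13 for Ghr and between 0.23 and 0.85 for Jak2, the lowest without LDKO replicate 1 and the highest without LDKO replicate 2 in each case. Against Control the Ghr difference ranged from 0.073 without Control replicate 1 to 0.61 without Control replicate 2.

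Among the transcription factor genes, Stat5b was lower in LTKOFstL/L and Stat5a was nearly level. Stat5b read 0.13 and 0.28 in Control, -0.098 and 0.098 in LDKO, with -0.59 and -0.89 in LTKOFstL/L. Both LTKOFstL/L libraries lay below the other 4, with a gap of 0.49 to the nearest LDKO library. Against Control, the log2 change of Stat5b was -0.94 (95% interval -1.36 to -0.53, 1.92-fold lower), with an unadjusted limma p of 0.00136 and an adjusted p of 0.0979. Against LDKO the difference was -0.74 (95% interval -1.15 to -0.33, limma adjusted p = 0.131). Against Control, Stat5b had the smallest adjusted p of the 8 genes tested and was the only one of them under 0.10. Against LDKO the smallest adjusted p was that of Socs3. The Stat5b value against Control rose above 0.10 with the acinar genes left out (limma adjusted p = 0.103), a spline prior (0.126) and no level filter (0.149). It did so too with a single prior (0.185), only the groups compared (0.211) and a replicate block (0.214). It stayed below 0.10 with rescaled libraries (0.0979) and with a level of at least 256 scaled units (0.0652). Leaving out 1 library gave Stat5b changes of -1.09 to -0.80 against Control and -0.89 to -0.59 against LDKO. Those fits leave 1 library in a genotype, so only the changes are given.

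Stat5a, the paralog of Stat5b next to it on chromosome 11, read -0.14 and 0.006 in Control, -0.16 and 0.086 in LDKO, with -0.006 and 0.14 in LTKOFstL/L. All 3 genotypes overlapped, and the largest of its 3 differences was 0.14 (95% interval -0.25 to 0.53, limma adjusted p = 0.768). Within each library, Stat5b minus Stat5a was 0.28 and 0.27 in Control, 0.065 and 0.012 in LDKO, with -0.59 and -1.03 in LTKOFstL/L. These differences were highest in Control and lowest in LTKOFstL/L, with no overlap between genotypes. The paralogs have similar coding sequences and the authors' treatment of shared reads is not given in the sources used here, so each value carries that uncertainty.

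Stat3, the factor that carries interleukin-6 signals, moved least with genotype after Stat5a. It read 0.11 and 0.071 in Control, -0.18 and 0.089 in LDKO, with -0.071 and -0.17 in LTKOFstL/L. Its largest difference was between LTKOFstL/L and Control, -0.21 (95% interval -0.58 to 0.16, limma adjusted p = 0.611). Stat3 and Stat5a lie tail to tail on opposite strands of chromosome 11 and share 72 exonic bases at their ends.

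**Figure D3:**
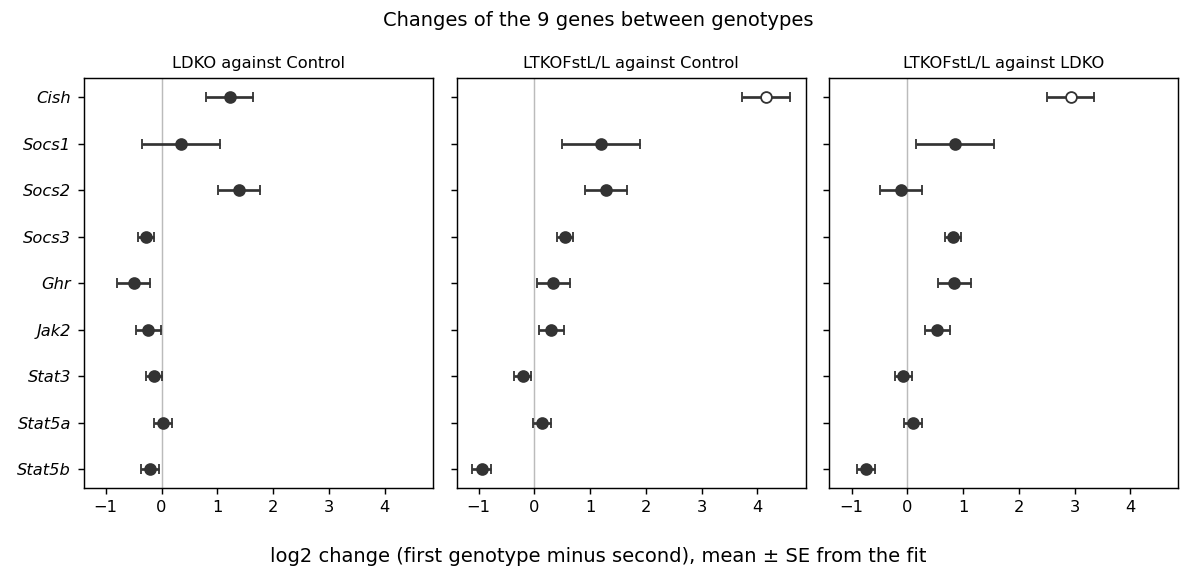
Log2 changes of the 9 genes (horizontal axis, mean ± SE from the fit over 6 libraries) in the 3 comparisons. Filled points were tested and open points (Cish with LTKOFstL/L) are descriptions. Stat5b lies at -0.94 and -0.74 in the LTKOFstL/L comparisons, and Stat5a and Stat3 lie near 0.

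Counted together, 0 of the 8 genes other than Cish passed for LTKOFstL/L against Control, where 0.556% of tested genes passed, 34 higher and 73 lower. For LTKOFstL/L against LDKO 0 of 8 passed as well, where 0.489% of tested genes passed, 38 higher and 56 lower. At an unadjusted p under 0.05 the counts were 3 of 8 in each comparison. Those 3 were Socs2, Socs3 and Stat5b against Control and Socs3, Ghr and Stat5b against LDKO. Over all tested genes, 2499 (13.0%) and 3103 (16.1%) reached that level. Against Control, 7 of the 9 genes did not overlap between genotypes, 5 higher and 2 lower, against 44.6% of tested genes. Against LDKO the count was 6, of which 5 were higher, against 44.2%. Cish is one of the genes in both counts by the choice of the set. Socs1 is in both as well, and it met the level filter by way of its LTKOFstL/L libraries. The 3 comparisons share libraries, so their counts are not independent. With 2 libraries against 2, the smallest p an exact permutation test can give is 0.333.

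Markers of some other cell types also differed between these libraries. The 10 adipocyte markers had mean centred log2 values of -0.30 and -0.17 in Control, -0.63 and 0.084 in LDKO, with 1.57 and 0.56 in LTKOFstL/L. Of these markers, 9 of 10 had a higher mean in LTKOFstL/L than in Control and 10 of 10 than in LDKO, though 0 passed. The 7 fibroblast markers averaged -0.085 and 0.21, then -0.45 and -0.57, then 0.80 and 0.46, and none passed. The 12 tested of the 14 leukocyte markers averaged 0.14 and 0.055, -0.015 and -0.59, and 0.33 and -0.084. Immediate early genes, which respond within minutes to stress or handling, averaged 0.46 and 0.64 in Control, -0.43 and 0.27 in LDKO, with -0.11 and -0.60 in LTKOFstL/L. Of 11 tested, 3 had higher means in LTKOFstL/L than in Control, and 1 fell and passed. The 7 Schwann and nerve markers averaged 0.69 and 0.11, -0.96 and -0.11, and 0.31 and -0.32. The 7 liver markers averaged -0.15 and 0.82, 0.048 and 0.37, and -0.77 and -0.14. The 8 endothelial markers averaged between -0.12 and 0.13 in every library. No gene of the Schwann, liver and endothelial lists passed. No marker of the lists in this paragraph was at the floor in every library. In bulk muscle, fewer cells of a type and less RNA per cell cannot be told apart, and the part of these cell types in the members' values was not tested.

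The genes with the pattern most like that of Cish were ranked by the root mean square difference of the 6 centred log2 values over all tested genes. The antisense gene Gm17041 came nearest, at 0.454, with -0.39 and -1.68 in Control, -0.93 and 0.39 in LDKO, with 2.97 and 3.51 in LTKOFstL/L. Its exons lie inside Cish, as described above, so it cannot be counted as a separate gene with the same pattern. The next 4 were Gm15491 at 0.529, Hcar2 at 0.541, Foxo6 at 0.731 and AC174780.1 at 0.755, on chromosomes 19, 5, 4 and 5. Hcar2 encodes a receptor for hydroxybutyrate and niacin that is known from fat cells, and Foxo6 is a forkhead transcription factor gene. Hcar2 read -0.26 and -1.90 in Control and 2.95 and 2.36 in LTKOFstL/L, and Foxo6 read -0.35 and -0.46 in Control and 2.39 and 2.10 in LTKOFstL/L. The ranking uses the Cish values that chose the set. High LTKOFstL/L and low Control readings of the genes it lists follow from that and are descriptions. Of the 5 genes, 2 to 4 stayed among the nearest when 1 library was left out, and 0 did so in the fit limited to genes with a level of at least 256 scaled units.

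**Figure D4:**
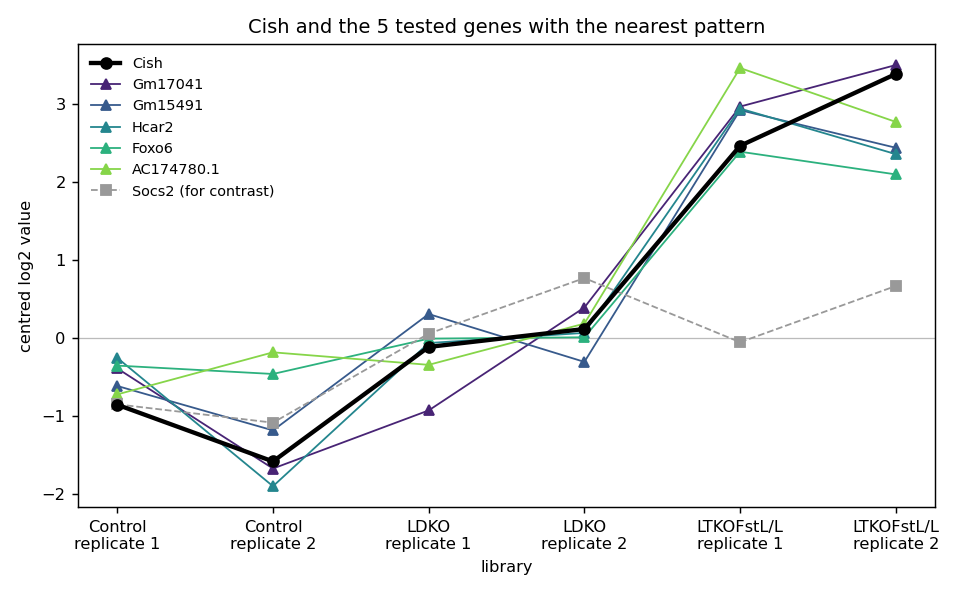
Centred log2 values (vertical axis) in the 6 libraries (horizontal axis) for Cish, the 5 tested genes nearest to it by root mean square difference, and Socs2 for contrast. Lines join the libraries of 1 gene for reading only. The 5 genes lie between 2.10 and 3.51 in LTKOFstL/L, while Socs2 lies at -0.055 and 0.67.

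The wider pathway was read from 6 lists with 75 distinct genes, of which 68 were tested. For LDKO against Control 0 of the 68 passed the limma test at an adjusted p of 0.05, while 8 had an unadjusted p under 0.05, 4 in each direction, against 5.90% of all tested genes. At that level there were 11 higher and 11 lower for LTKOFstL/L against Control, where 13.0% of all tested genes reached it. The counts were 10 higher and 9 lower for LTKOFstL/L against LDKO, where 16.1% did. Against Control, 1 gene was higher in LTKOFstL/L and 0 were lower, and against LDKO 2 were higher and 0 lower. Those calls were Igfbp5 in both LTKOFstL/L comparisons and Serpina3n against LDKO.

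Igfbp5, which encodes an insulin-like growth factor binding protein made in muscle and connective tissue, rose in LTKOFstL/L. It read -0.22 and 0.22 in Control, -0.92 and -0.42 in LDKO, with 2.77 and 2.51 in LTKOFstL/L. Both LTKOFstL/L libraries stood more than 2 log2 units above every other library. The change was 2.64 (SE 0.24, limma adjusted p = 0.0146) against Control and 3.31 (SE 0.24, limma adjusted p = 0.0171) against LDKO. The first call was lost without Control replicate 1 (limma adjusted p = 0.171), without either LDKO library (0.140) and without LTKOFstL/L replicate 1 (0.0666). The second was lost without either Control library (0.0680), without LDKO replicate 1 (0.0750) and without LDKO replicate 2 (0.134). Both calls were also lost with a single prior variance (limma adjusted p = 0.108 and 0.0724) and with only the groups compared (0.140 and 0.0680), and the first with no level filter (0.0502).

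Serpina3n, a secreted serine protease inhibitor and STAT3 target, read 0.10 and -0.10 in Control, -0.24 and -0.20 in LDKO, with 1.53 and 1.08 in LTKOFstL/L. It rose by 1.53 against LDKO (SE 0.19, limma adjusted p = 0.0480) and differed by 1.31 from Control (limma adjusted p = 0.0642), which did not pass. The call against LDKO held without LTKOFstL/L replicate 2 and was lost without any of the other 5 libraries, with limma adjusted p-values of 0.102 to 0.203. It was also lost with the replicate number as a block (limma adjusted p = 0.0935), a single prior variance (0.127), no level filter (0.0812) and only the groups compared (0.136).

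Of the 13 tested growth hormone and STAT5 target genes, 5 had higher means and 8 lower means in LTKOFstL/L than in Control, with a median change of -0.20 against 0.005 over all tested genes. Against LDKO the split was also 5 and 8, with a median of -0.41. Igfbp5 was the single member of this list that passed in either comparison. Further genes of the list are named here after their values were seen. Igf1, the growth factor gene that growth hormone induces, read 0.003 and -0.37 in Control, -0.18 and -0.003 in LDKO, with 0.61 and 0.64 in LTKOFstL/L. The LTKOFstL/L libraries were above the other 4, by 0.81 over Control (SE 0.17, limma adjusted p = 0.141) and 0.72 over LDKO (limma adjusted p = 0.142). Bcl6, a repressor that competes at STAT5 sites, differed by -0.92 in LDKO against Control (limma adjusted p = 0.459) and by -0.90 in LTKOFstL/L (limma adjusted p = 0.122). Pim3, a survival kinase gene, differed by -1.24 between LTKOFstL/L and Control (limma adjusted p = 0.0979). Ccnd1, the cyclin D1 gene, differed by 1.05 (limma adjusted p = 0.170).

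The 15 tested STAT3 target genes had lower means in LTKOFstL/L than in Control in 12 cases, with a median change of -0.76. None of the 15 passed in that comparison. Cebpd, a transcription factor gene that responds to cytokines and glucocorticoids, read 0.54 and -0.54 in Control, 0.56 and 0.77 in LDKO, with -2.04 and -1.70 in LTKOFstL/L. Its LTKOFstL/L libraries were the lowest of the 6, at -1.87 against Control (limma adjusted p = 0.113) and -2.54 against LDKO (limma adjusted p = 0.0558). Junb, which is also an immediate early gene, differed by -2.01 from Control (limma adjusted p = 0.263). These genes too are named after their values were seen. Socs3, itself a known STAT3 target, was higher in LTKOFstL/L, as given above.

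The other 4 SOCS genes, Socs4 to Socs7, had higher means in LTKOFstL/L than in Control and in LDKO in all 4 cases, with median changes of 0.21 and 0.48 and none passing. The 6 tested JAK and STAT genes outside the set had median changes of -0.13 for LDKO against Control, 0.04 for LTKOFstL/L against Control and 0.08 for LTKOFstL/L against LDKO. The 12 brakes and adaptors, which include phosphatases, PIAS proteins and SH2B adaptors, had medians between 0.07 and 0.13. Pias4, an inhibitor of STAT activity named after its value was seen, was the nearest of these 12 to the threshold, at -0.83 in LTKOFstL/L against LDKO (limma adjusted p = 0.0741). The 21 tested cytokine receptor genes had medians within 0.1 of 0 in all 3 comparisons, and none passed. Il6st, the shared receptor chain of the interleukin-6 family and also named after its value was seen, differed by -0.69 in LTKOFstL/L from Control (limma adjusted p = 0.176). Ifngr2 of the same list went the other way, by 0.74, and was nearer the threshold (limma adjusted p = 0.106). It too was named after its value was seen. In that comparison 9 of the 21 receptor genes had higher means and 12 lower.

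**Figure D5:**
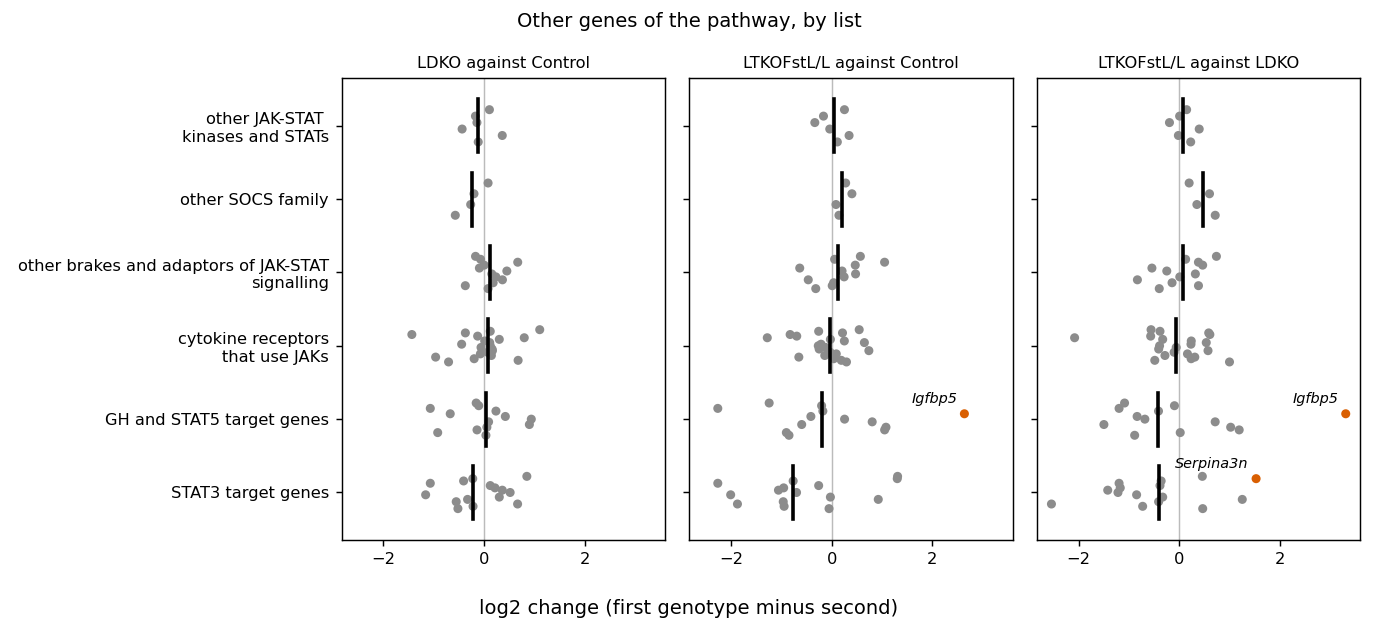
Log2 changes (horizontal axis) of the tested genes of 6 pathway lists in the 3 comparisons. Each point is a gene, orange points passed an limma adjusted p of 0.05, and black bars are list medians. Igfbp5 lies at 2.64 and 3.31 and Serpina3n at 1.53.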

How the data were processed

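RNA was extracted with TRI Reagent and libraries were made with a SMARTer mRNA kit, per the labels' protocols. The genome build was mm10, per the submitters' processing notes, and the sources used here do not name the aligner, the counting or the scaling. The deposited log2 values appear, as judged from the values, to be the log2 of library-scaled reads with a floor at 1 scaled unit, centred per gene on the median of 6 libraries. The deposited lists of differential genes give log2 differences and corrected p-values from the authors' AC test, per the file headers.

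Centring removes a gene's level, so levels were bracketed from the rounding steps of the stored numbers. These brackets are wide. Socs1, Socs3 and Cish sit low, with the median level of each bracketed below 256 scaled units. The table holds 53342 genes, 22929 of them at the floor throughout, and the 19235 tested genes had a level of at least 16 scaled units in at least 2 libraries. limma 3.58.1 (R 4.3.3, statmod 1.5.0) fitted 1 mean per genotype over all 6 libraries, leaving 3 residual degrees of freedom. Prior variances were robust and estimated in 3 strata, set by the lowest level of a gene over the 6 libraries and split at 16 and 256 scaled units. The p-values are two-sided and were adjusted by the Benjamini-Hochberg method over all tested genes. Where a symbol in a list had 2 rows, the row with the higher level was used. The level brackets and the fit were tested on simulated data.

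The members and the lists were chosen with earlier results of these data known. Named genes are the 9 members, Irs1, Irs2 and Fst, the pathway genes that passed and the 5 tested genes nearest to Cish. Any others are marked as named after their values were seen, apart from Gm17040, which overlaps Cish. Positions are from GENCODE M21 on GRCm38. The alternatives were leaving out each library, a replicate block, a single or a spline prior, other level filters, only the groups compared, rescaled libraries, the acinar genes left out and a threshold of 0.10.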

Additional observations from a re-analysis of the deposited data

How the results depend on the processing

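None of the members tested in a comparison passed at a threshold of 0.05 under any alternative that kept 2 libraries per genotype compared. Cish had no test in the LTKOFstL/L comparisons. At 0.10 the count for LTKOFstL/L against Control was 1 of the 8 genes tested, Stat5b. The number of genes passing depended on the settings. For LDKO against Control it was 36, and it became 20 without the acinar genes, 1 with a single prior variance, 5 with no level filter, 6 with a spline trend, 0 with only the groups compared (1012 in that limma fit at an unadjusted p under 0.05), and 0 to 532 with 1 library left out. For LTKOFstL/L against Control it was 107, and it became 16 with no level filter, 24 with a single prior, 22 with only the groups compared, 276 at a threshold of 0.10, and 22 to 485 with 1 library left out. For LTKOFstL/L against LDKO it was 94, and it became 34 with no level filter, 18 with a single prior, 205 with a level of at least 256 scaled units, 2 with only the groups compared, 400 at a threshold of 0.10, and 2 to 634 with 1 library left out.

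With the replicate number as a block, 50 genes passed for LTKOFstL/L against Control and 16 for LTKOFstL/L against LDKO. Deviations of same-numbered libraries from their group means correlated at 0.158, -0.034 and -0.141 between the genotypes, so the numbers were not taken to pair the samples.

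Leaving out 1 library moved some uncalled changes across 0. For LDKO against Control the ranges were -0.12 to 0.81 for Socs1, -0.54 to 0.069 for Jak2 and -0.094 to 0.16 for Stat5a. For LTKOFstL/L against LDKO they were -0.47 to 0.26 for Socs2, -0.21 to 0.060 for Stat3 and -0.017 to 0.23 for Stat5a. The cause of these shifts was not tested. Socs1 and Socs3 have no value at the filter of 256 scaled units. Depth is unknown, and Socs1 is limited by its few reads.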
